A study of Mus musculus with 8 samples.

Results

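The tricarboxylic acid (TCA) cycle enzymes described here are 9 genes taken by name, *Cs*, *Idh3a*, *Idh3b*, *Idh3g*, *Ogdh*, *Sucla2*, *Suclg1*, *Fh1* and *Mdh2*, out of 33641 genes in the files. They were not chosen by their measured values, though earlier results of these data were known when the list was drawn up. Poly(A) RNA of interscapular brown adipose tissue (BAT) was sequenced from 8 separate mice of the C57BL/6 strain, aged 28 weeks. The comparison asks which transcripts differ when the RNA-binding protein HuR is missing from adipocytes. By the labels, A7, A8 and A12 are wild-type (WT), and A24, A25, A26, A29 and A31 are HuR knockout (HuR KO). Animals of the HuR KO label carry floxed HuR alleles together with the *AdipoQ-Cre* transgene, whose Cre recombinase is made in adipocytes, so that the other cells of BAT keep an intact gene. The control animals were littermates of 3 genotypes (wt/wt-cre+, flox/flox-cre− and wt/flox-cre−), and the labels do not say which of these each WT library is. The total of estimated counts was 60622522, 51751002 and 50673814 for A7, A8 and A12, and 18264754, 17558090, 67498055, 50893173 and 58727739 for A24, A25, A26, A29 and A31. A24 and A25 were thus the shallowest libraries, and both are labelled HuR KO.

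The TCA cycle runs in the mitochondrial matrix, where it oxidizes the acetyl group of acetyl-CoA to carbon dioxide and hands the electrons to NAD and to the respiratory chain. In BAT, which burns fatty acids and glucose to make heat, the cycle takes up the acetyl-CoA from both fuels. Each of its steps has its own enzyme, and several of these are complexes whose subunits come from separate genes.

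Levels are given as CPM, counts scaled to a common library total by edgeR's TMM factors. *Elavl1*, the gene of HuR, had 50.6, 48.0 and 49.2 CPM in A7, A8 and A12. The libraries labelled HuR KO had 61.9 (A24), 47.3 (A25), 43.4 (A26), 61.3 (A29) and 61.2 CPM (A31). The gene total was therefore not lower under the HuR KO label (log2 fold change 0.16, adjusted p = 0.667 in edgeR), and every direction given here rests on the labels. The markers of brown adipocytes were present in every library, with all 10 genes of the list detected and *Fabp4* the most abundant on average. Their summed level was 15723, 32572 and 22989 CPM in A7, A8 and A12, and 27520, 14989, 20184, 20241 and 24494 CPM in A24, A25, A26, A29 and A31. Libraries of both labels lay at the low end (A25 and A7) and at the high end (A8 and A24).

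No member passed the threshold between the libraries labelled WT and HuR KO, which was an adjusted p of at most 0.05 and a fold change of at least 1.5 in edgeR's quasi-likelihood test, adjusted over all genes tested. Low counts removed no member, so that all 9 were among the 14851 genes tested. Of the 9, 0 were called, beside 105 of the 14851 genes (0.707%). For none of the 9 did the groups separate without overlap in TMM-normalized CPM, as they did for 1701 of the 14851 genes (11.5%). At an unadjusted p under 0.05, 0 of 9 members stood beside 2531 of 14851 genes (17%). DESeq2 and limma voom also called 0 of 9 members, again with 0 at an unadjusted p under 0.05, where they called 818 (5.51%) and 157 (1.06%) of the 14851 genes. Of the 19 alternative settings, those with a member at an unadjusted p under 0.05 were total counts only (*Sucla2*, *Suclg1* and *Mdh2*, beside 20.1% of genes), leaving out A8 (*Suclg1*, beside 21.4%) and the transcript with the highest count (*Idh3a*, beside 13.5%). The background count rests on single libraries, as it was 13 genes without A7, 190 without A12, 15 without A25, 10 without A26, 14 without A29 and 17 without A31, with 0 members called each time. The log2 fold changes of the members had a median of −0.0047 and ran from −0.29 (*Fh1*) to 0.32 (*Suclg1*). Their median size was 0.156 and their median standard error 0.197 on the log2 scale, beside 0.268 and 0.248 over all genes tested. In bulk tissue, fewer cells of a type and less RNA per cell cannot be told apart.

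**Figure D1:**
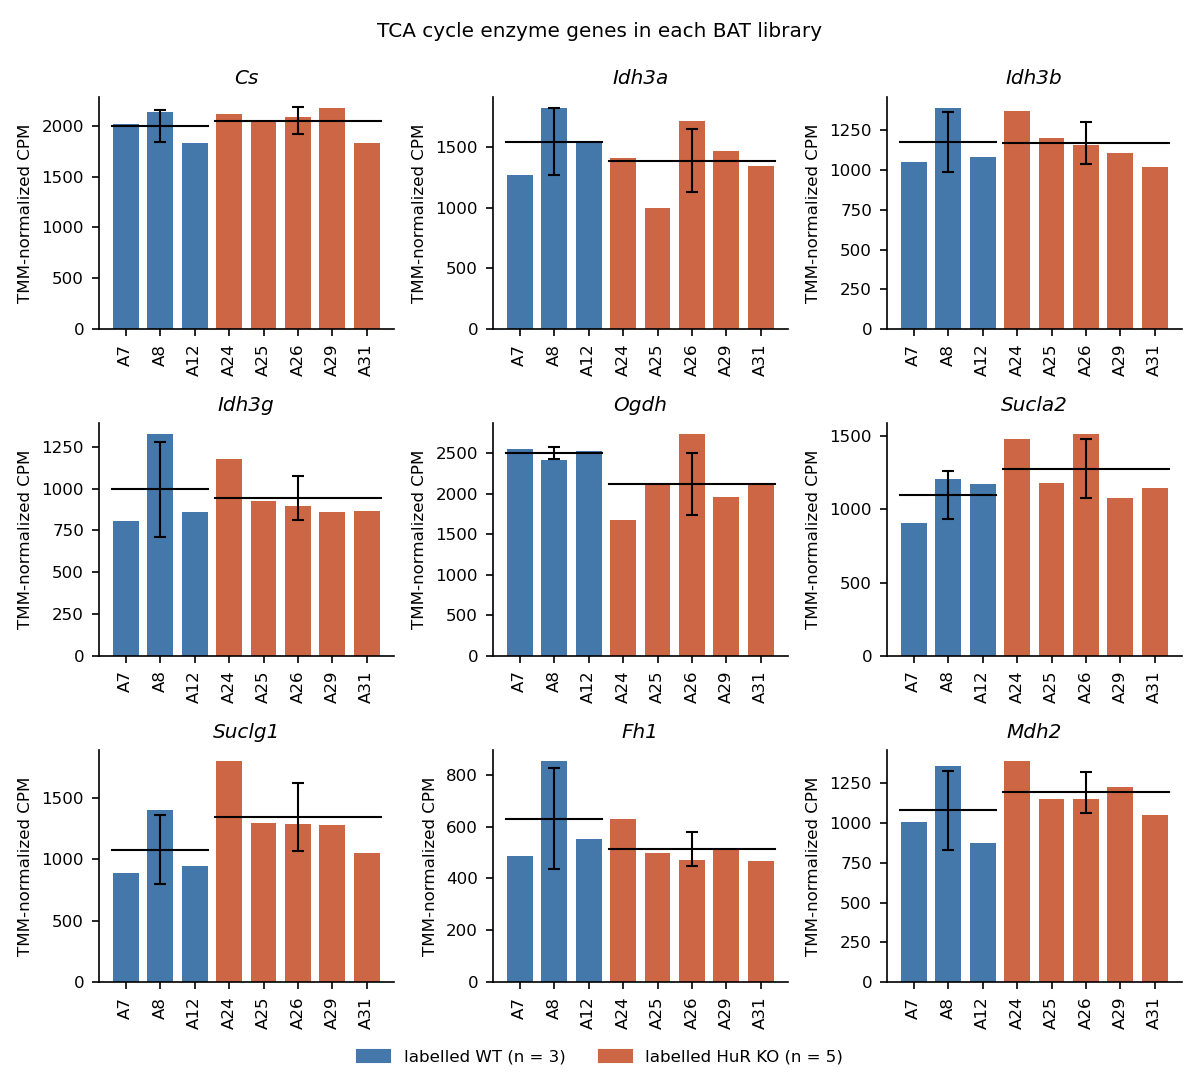
TMM-normalized CPM of the 9 members in each library, with bars in blue for libraries labelled WT (n = 3) and in orange for those labelled HuR KO (n = 5), and black lines for group means with SD. The groups overlap for every member.

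*Cs* encodes citrate synthase, which joins acetyl-CoA to oxaloacetate at the entry to the cycle. It had 2021, 2138 and 1830 CPM in A7, A8 and A12, and 2113, 2044, 2090, 2176 and 1830 CPM in A24, A25, A26, A29 and A31. *Cs* was the steadiest member, with a standard deviation of 0.0970 in log2 CPM over the 8 libraries and a highest value (A29) only 1.19 times the lowest (A12). The group means were 1996 ± 156 (SD, n = 3) under the WT label and 2051 ± 132 CPM (SD, n = 5) under the HuR KO label, and the fold change in log2 was 0.04 (standard error 0.168, adjusted p = 0.930 in edgeR). This difference was within the spread of either group, and its sign turned without A12, to −0.020.

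*Idh3a*, *Idh3b* and *Idh3g* encode the catalytic subunit and the pair of regulatory subunits of the NAD-dependent isocitrate dehydrogenase, a regulated step that makes oxoglutarate. *Idh3a* had 1272, 1823 and 1541 CPM in A7, A8 and A12, and 1409, 996, 1718, 1468 and 1343 CPM in A24, A25, A26, A29 and A31. A8 and A26 were the highest libraries and A25 the lowest, and the groups overlapped (−0.16 in log2, standard error 0.215, adjusted p = 0.762 in edgeR). *Idh3b* had 1053, 1392 and 1080 CPM in A7, A8 and A12, and 1373, 1200, 1158, 1107 and 1019 CPM in A24, A25, A26, A29 and A31. *Idh3g* had 807, 1325 and 858 CPM in A7, A8 and A12, and 1176, 923, 898, 859 and 867 CPM in A24, A25, A26, A29 and A31. For both regulatory subunits A8 was the highest library and A24 came next. Their log2 fold changes were −0.0047 for *Idh3b* and −0.08 for *Idh3g* and changed sign with single choices, as without A8 they were 0.14 and 0.19.

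A ratio of subunits within a library needs no scaling between libraries, but it keeps any trend of counts with transcript length. The transcripts with the highest count have 2580 bases in *Idh3a*, 1616 in *Idh3b* and 1331 in *Idh3g*. The log2 ratio of *Idh3a* to *Idh3b* counts was 0.27, 0.39 and 0.51 in A7, A8 and A12, and 0.04, −0.27, 0.57, 0.41 and 0.40 in A24, A25, A26, A29 and A31. The ratio of these transcripts was lowest in the shallow libraries A24 and A25, and the other HuR KO libraries lay within or just above the WT range. The difference of group means was −0.16 (two-sided exact permutation p = 0.607), and without A24 and A25 it was 0.067. For *Idh3a* to *Idh3g* the difference was −0.11 (two-sided exact permutation p = 0.643), and without A24 and A25 it was 0.13. The smallest p that 3 libraries against 5 allow in this test is 0.0357. *Idh2*, the NADP-dependent isocitrate dehydrogenase of the matrix, had a log2 fold change of −0.16 and was not called.

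*Ogdh* encodes the decarboxylase of the oxoglutarate dehydrogenase complex, which turns oxoglutarate into succinyl-CoA. It had 2553, 2415 and 2527 CPM in A7, A8 and A12, and 1680, 2117, 2729, 1959 and 2112 CPM in A24, A25, A26, A29 and A31. The 3 WT libraries lay close together, 4 of the 5 HuR KO libraries lay below them, and A26 lay above all others. The WT mean was 2498 ± 73.5 CPM (SD, n = 3) and the HuR KO mean 2119 ± 384 CPM (SD, n = 5). In log2 the fold change was −0.24 (standard error 0.197, adjusted p = 0.591 in edgeR). The difference was smaller than the spread among the HuR KO libraries.

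The partner of *Ogdh* in this complex, *Dlst*, was the TCA cycle gene that fell. *Dlst* encodes the dihydrolipoyl succinyltransferase, the core subunit that passes the succinyl group to coenzyme A. It is not a member and belongs to a list of 10 other TCA cycle subunits, where it was the gene called, with 9 of the 10 not called. Of all genes tested, 0.465% were called lower. *Dlst* had 1066, 1099 and 944 CPM in A7, A8 and A12, and 457, 515, 608, 457 and 480 CPM in A24, A25, A26, A29 and A31. All 5 HuR KO libraries were below all 3 WT libraries, with no overlap, and A26 was the highest of the 5. Such a separation downward was found for 6.09% of all genes tested. The HuR KO mean of 503 ± 63.2 CPM (SD, n = 5) was 0.486 times the WT mean of 1036 ± 81.7 CPM (SD, n = 3). In log2 the fold change was −1.04 (standard error 0.163, adjusted p = 0.0289 in edgeR).

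The call of *Dlst* depends on single libraries and on the settings, and its size depends on them less. Over 19 alternatives the log2 fold change lay between −1.12 and −0.81, and *Dlst* was past the threshold in 9 and not past it in 10, with adjusted p from 3.81e-09 (DESeq2) to 0.298 (without A7, A8 and A31). With 1 library left out, the adjusted p was 0.106 without A7, 0.0931 without A25, 0.0609 without A26, 0.0866 without A29 and 0.0733 without A31. It was 0.147 without the shallow libraries A24 and A25, with a log2 fold change of −1.02, and 0.0589 with each gene read from its transcript with the highest count. With libraries scaled by total counts only, all genes together moved by 0.23 (their median in log2). *Dlst* then had −0.81, or −1.04 relative to that shift, with an adjusted p of 0.0634. The gene has a single transcript in the files, of 2764 bases and 15 exons on GRCm38 chromosome 12 (85110833 to 85134845, plus strand), and shares 0 words of 31 bases with other genes.

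The lipoamide dehydrogenase *Dld*, which reoxidizes the lipoyl arm of *Dlst* and of other complexes, had 683, 814 and 786 CPM in A7, A8 and A12, and 754, 668, 860, 679 and 610 CPM in A24, A25, A26, A29 and A31. The groups overlapped, with a log2 fold change of −0.09. The balance of transcripts for the subunits of the complex was therefore read within each library, a comparison chosen after the values had been seen. The log2 ratio of *Dlst* to *Ogdh* counts was −1.26, −1.14 and −1.42 in A7, A8 and A12, and −1.88, −2.04, −2.17, −2.10 and −2.14 in A24, A25, A26, A29 and A31. All HuR KO libraries lay below all WT libraries, including A26, where *Ogdh* itself was highest. In counts, *Dlst* stood at 0.414 of *Ogdh* in the WT libraries and at 0.239 in the HuR KO libraries, a difference of −0.79 in log2. The log2 ratio of *Dlst* to *Dld* went from 0.45 ± 0.189 (SD, n = 3) to −0.50 ± 0.152 (SD, n = 5), again without overlap. No test is given for these ratios, since *Dlst* was chosen for its separation. With any 1 library left out the difference stayed between −0.87 and −0.72 for *Dlst* to *Ogdh* and between −1.04 and −0.85 for *Dlst* to *Dld*. *Mrps36*, which encodes a small protein that holds the lipoamide dehydrogenase to the complex, had a log2 fold change of 0.07 and was not called.

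**Figure D2:**
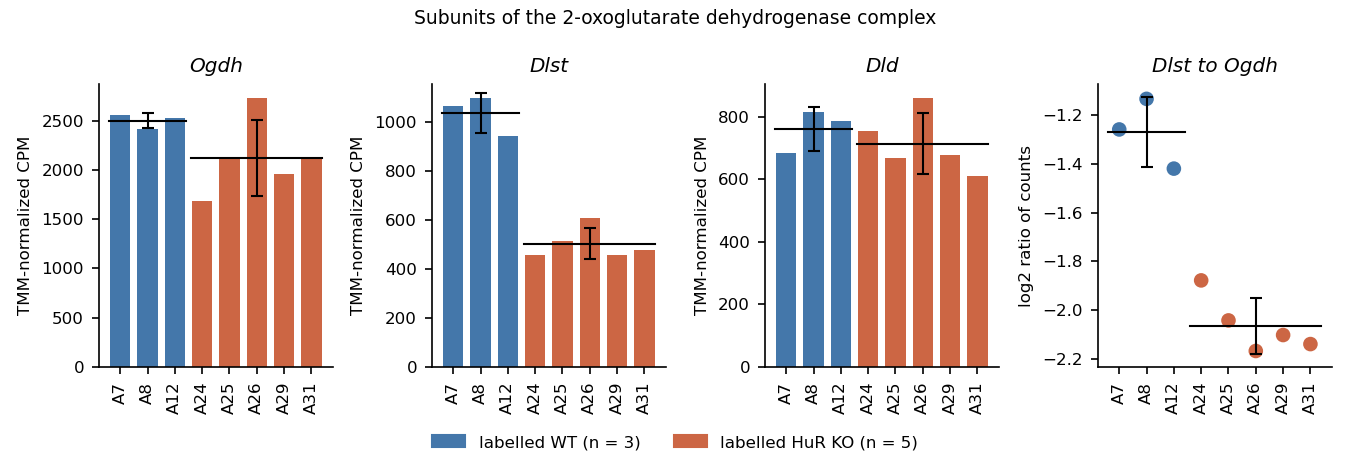
TMM-normalized CPM of *Ogdh*, *Dlst* and *Dld* in each library, and the log2 ratio of *Dlst* to *Ogdh* counts, in blue for libraries labelled WT (n = 3) and in orange for HuR KO (n = 5), with black lines for group means with SD. *Dlst* lies between 944 and 1099 CPM in the WT libraries and between 457 and 608 CPM in the HuR KO libraries.

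*Suclg1* and *Sucla2* encode the shared subunit of succinyl-CoA ligase and the subunit that makes its ATP-forming version, and the ligase keeps the energy of succinyl-CoA as a nucleoside triphosphate. *Suclg1* had 890, 1402 and 947 CPM in A7, A8 and A12, and 1802, 1294, 1291, 1285 and 1052 CPM in A24, A25, A26, A29 and A31. A24 was the highest library and A7 the lowest, and A8 lay above 4 of the 5 HuR KO libraries. A fold change of 0.32 in log2 (standard error 0.232, adjusted p = 0.536 in edgeR) was the largest upward value among the members, and it depended on single libraries, with 0.56 without A8 (adjusted p = 0.213 in edgeR), 0.19 without A7 and 0.18 without A24. *Sucla2* had 909, 1211 and 1176 CPM in A7, A8 and A12, and 1479, 1180, 1513, 1080 and 1149 CPM in A24, A25, A26, A29 and A31. A24 and A26 were above all WT libraries and the other 3 HuR KO libraries were within their range, with 0.22 as the log2 fold change (standard error 0.196, adjusted p = 0.618 in edgeR).

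The subunit that makes the GTP-forming ligase, *Suclg2*, was far less abundant, with 131, 178 and 141 CPM in A7, A8 and A12 and 164, 156, 144, 129 and 105 CPM in A24, A25, A26, A29 and A31. The log2 ratio of *Sucla2* to *Suclg2* counts was 2.79, 2.77 and 3.06 in A7, A8 and A12, and 3.17, 2.92, 3.39, 3.06 and 3.45 in A24, A25, A26, A29 and A31. Transcripts of the ATP-forming subunit thus prevailed in every library, and A26 and A31 had the highest ratios. The ratio had a mean of 2.87 ± 0.165 (SD, n = 3) under the WT label and 3.20 ± 0.224 (SD, n = 5) under the HuR KO label, a difference that was not past the threshold (0.32, two-sided exact permutation p = 0.107). As counts grow with transcript length, the level of these genes was also compared per length, as TPM, the count per base of transcript scaled to a common total. On that scale *Sucla2* averaged 978 TPM over the 8 libraries and *Suclg2* 79.3 TPM. *Suclg2* shares 36.3% of its words of 31 bases with the pseudogene *Gm15163*, which was counted at 0.0520 CPM.

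*Fh1* encodes fumarase, which adds water to fumarate to give malate. It had 486, 852 and 552 CPM in A7, A8 and A12, and 628, 496, 470, 511 and 465 CPM in A24, A25, A26, A29 and A31. A8 stood above all other libraries and the rest lay between 465 and 628 CPM. A fold change of −0.29 in log2 (standard error 0.211, adjusted p = 0.525 in edgeR) was the largest downward value among the members, and it was −0.0084 without A8 and −0.45 without A7. *Mdh2*, the malate dehydrogenase that closes the cycle at oxaloacetate, had 1006, 1357 and 874 CPM in A7, A8 and A12, and 1388, 1150, 1147, 1223 and 1047 CPM in A24, A25, A26, A29 and A31. A24 and A8 were the highest and A12 the lowest, with 0.14 as the log2 fold change (standard error 0.196, adjusted p = 0.761 in edgeR), which was 0.012 without A12 and 0.35 without A8. Between succinyl-CoA ligase and fumarase stands succinate dehydrogenase, whose subunit genes *Sdha*, *Sdhb*, *Sdhc* and *Sdhd* had log2 fold changes of −0.03, 0.04, 0.11 and 0.15, none of them called.

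**Figure D3:**
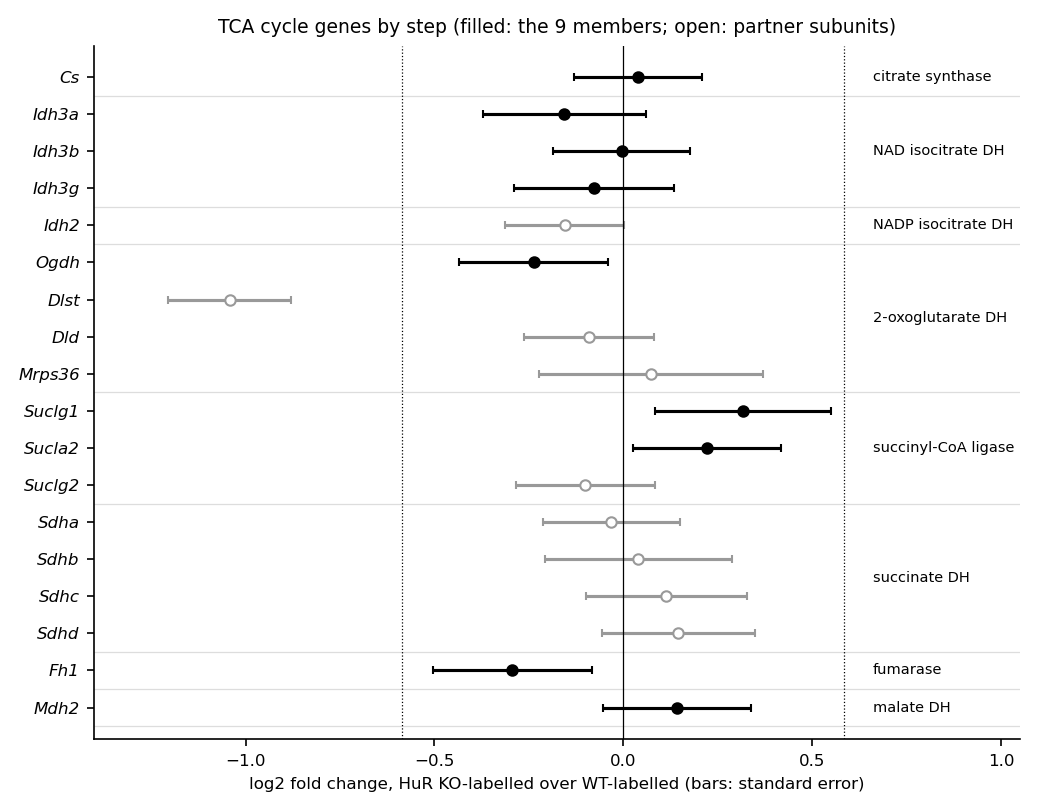
Log2 fold change of TCA cycle genes, each with its standard error, in the order of the cycle, for the 9 members (filled) and the partner subunits (open), with dotted lines at a fold of 1.5 in either direction. *Dlst*, at −1.04, is the gene beyond these lines.

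The members' order of abundance was read in TPM. Averaged over the 8 libraries it ran from *Suclg1* (1232 TPM) and *Mdh2* (1175 TPM) through *Idh3b* (1051 TPM), *Idh3g* (998 TPM), *Sucla2* (978 TPM), *Cs* (968 TPM) and *Idh3a* (965 TPM) to *Ogdh* (779 TPM) and *Fh1* (472 TPM). Most neighbours in this order cannot be separated, since *Suclg1* was above *Mdh2* in 6 of 8 libraries, *Idh3g* above *Sucla2* in 5, *Sucla2* above *Cs* in 4 and *Cs* above *Idh3a* in 4. *Mdh2* was above *Idh3b*, and *Idh3b* above *Idh3g*, in 7 of 8 libraries. *Fh1* held the lowest or next-to-lowest place in each library. In TPM, which takes no TMM factor, *Suclg1* separated the groups, at 1012, 1028 and 937 TPM in A7, A8 and A12 and 1729, 1604, 1215, 1246 and 1081 TPM in A24, A25, A26, A29 and A31, and the other 8 members overlapped. Groups separated in TPM for 1146 of 14805 genes (7.74%), with 993 (6.71%) higher under the HuR KO label, as *Suclg1* was, and 153 (1.03%) lower. Among the partners, *Sdhb* (1274 TPM) averaged just above *Suclg1*, *Sdha* (1004 TPM) lay within the members' range, and *Dld* (424 TPM) and *Dlst* (349 TPM) stood below *Ogdh*. *Idh2* averaged 188 TPM, under each of the *Idh3* subunit genes.

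The members did not all move together across the libraries. Their mean log2 CPM was 10.09, 10.53 and 10.17 in A7, A8 and A12, and 10.44, 10.19, 10.35, 10.23 and 10.12 in A24, A25, A26, A29 and A31. A8, labelled WT, and A24, labelled HuR KO, were the highest, and the group means of 10.26 ± 0.234 (SD, n = 3) and 10.27 ± 0.124 (SD, n = 5) differed by 0.0017. Together the members took 1.12%, 1.06% and 1.08% of all counts in A7, A8 and A12, and 1.27%, 1.37%, 1.30%, 1.21% and 1.22% in A24, A25, A26, A29 and A31. These shares do not overlap, but they rest on total counts, a scaling under which all genes together moved by 0.23 in log2. In summed TPM of the members the groups overlapped, as A7 (8860 TPM) lay above A29 (8412 TPM) and A31 (8486 TPM). A24, A25 and A26 lay above all WT libraries on that scale. As a description over the 8 libraries, Pearson's r of each gene with the mean of the other members was 0.90 for *Idh3b*, 0.88 for *Idh3g*, 0.74 for *Mdh2*, 0.71 for *Fh1*, 0.69 for *Suclg1*, 0.57 for *Cs*, 0.54 for *Sucla2*, 0.45 for *Idh3a* and −0.32 for *Ogdh*. The closest pair was *Idh3b* and *Idh3g* (r = 0.94), and the pair furthest apart was *Ogdh* and *Suclg1* (r = −0.63). *Ogdh* was thus the member with its own pattern, lowest in A24, where *Suclg1* and *Mdh2* were highest.

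The genes most like the members' mean over these 8 libraries were *Arl3* (r = 0.98), *Gstk1*, *Tmbim4*, *Gstz1*, *Orm3*, *Idh1*, *Cib2*, *Hsd17b10*, *Pepd* and *Pex2* (r = 0.94). A8 was the highest library for all 10, and A24 came next for all but *Cib2*. None was called, and *Idh1*, the cytosolic isocitrate dehydrogenase (r = 0.95), is the gene among them from the pathway lists. A8 and A24 also stood apart by transcript length. Among genes whose leading transcript is shorter than 1000 bases, the median deviation of log2 CPM from the mean over the libraries was 0.51 in A8 and 0.45 in A24, and among genes of 6000 bases or more it was −0.23 and −0.45. A7, A12 and A26 had the opposite trend, with −0.39, −0.29 and −0.26 for the short class and 0.24, 0.28 and 0.23 for the long class. *Idh3b*, *Idh3g*, *Sucla2*, *Suclg1* and *Mdh2* have leading transcripts of 1000 to 2000 bases, *Cs*, *Idh3a* and *Fh1* of 2000 to 3000 bases, and *Ogdh* one of 4127 bases. In A24, *Suclg1* deviated by 0.57 and *Ogdh* by −0.41, where their length classes had 0.26 and −0.22. The part of this trend in how the members vary was not tested, nor its part in the ratios within a library. Several of these ratios set genes of unlike length side by side. *Sucla2* has 1545 bases and *Suclg2* 2518, and *Dlst* has 2764 and *Ogdh* 4127.

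With the trend removed from each library, an alternative chosen after seeing the data, 0 of 9 members and 353 genes were called. The members then had log2 fold changes from −0.29 to 0.28. *Dlst* is 2764 bases long, and in its class of 2000 to 3000 bases the median deviation lay between −0.07 and 0.12 in all libraries. *Dlst* itself deviated by 0.70, 0.74 and 0.52 in A7, A8 and A12 and by −0.52, −0.35, −0.11, −0.52 and −0.45 in A24, A25, A26, A29 and A31. With the trend removed its log2 fold change was −1.04 (adjusted p = 0.0124 in edgeR).

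**Figure D4:**
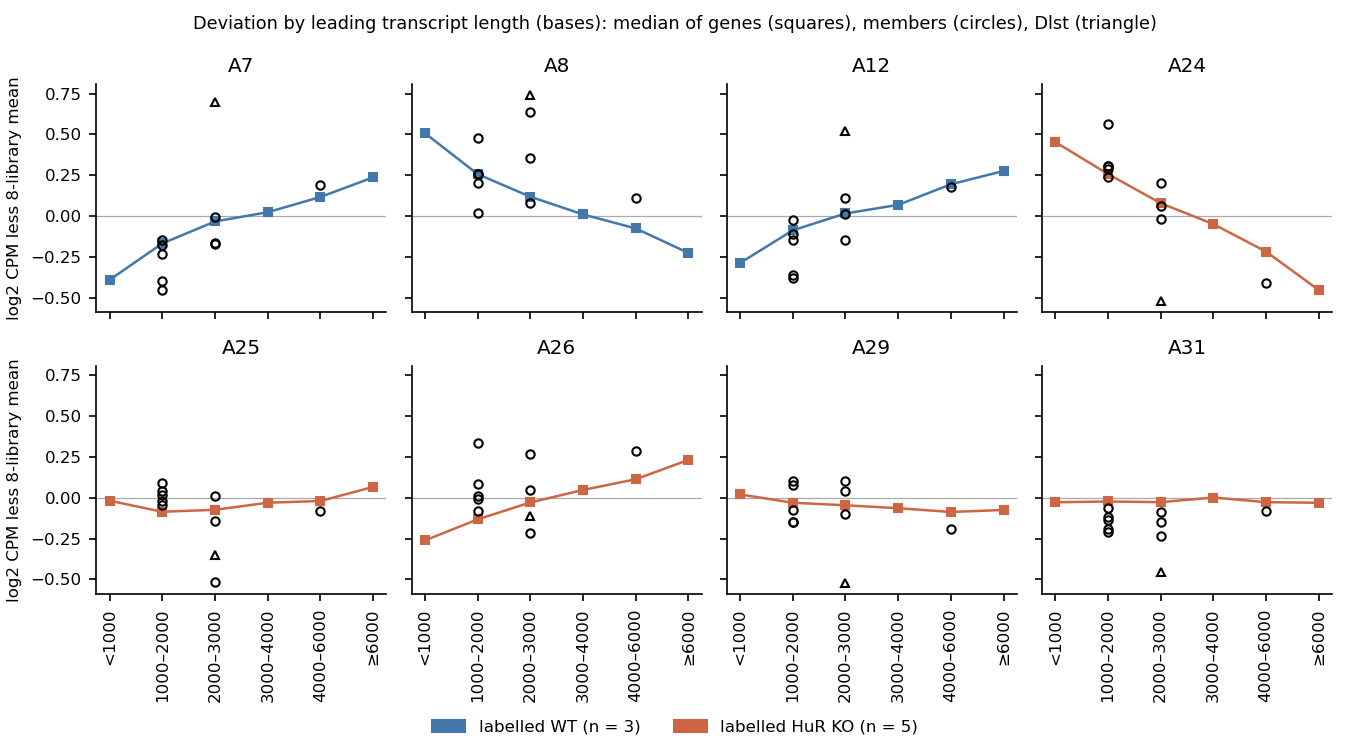
Deviation of log2 CPM in each library from the mean over the 8 libraries, against the length class of the leading transcript in bases, as the median of the genes in a class (squares), the members (circles) and *Dlst* (triangle), in blue for WT and orange for HuR KO labels. A8 and A24 fall with length, A7, A12 and A26 rise, and *Dlst* is above its class in the WT libraries and below it in the HuR KO libraries.

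The files list 52 transcripts of the members, of which 47 were tested and 0 called, beside 4 of 41808 transcripts in all (0.00957%). That background count rests on single libraries, as it was 0 to 2 with a library left out. At an unadjusted p under 0.05 there was 1 member transcript, beside 3415 of the 41808 (8.17%). This was *Idh3a*-205, the main coding transcript of *Idh3a*, with a log2 fold change of −0.49 (adjusted p = 0.571 in edgeR). *Cs*, *Idh3b* and *Idh3g* were each estimated at over 96% from 1 transcript in every library. *Idh3a* was not, as *Idh3a*-205 made up 57.2%, 44.6% and 53.8% of its counts in A7, A8 and A12, and 32.7%, 47.0%, 40.3%, 46.8% and 46.4% in A24, A25, A26, A29 and A31. A24 was the lowest library and A7 the highest, with overlap of the groups (two-sided exact permutation p = 0.143). *Idh3a*-203, a transcript with a retained intron, held 20.8% (A7) to 42.8% (A24), and in A24 it was above *Idh3a*-205.

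*Mdh2* was divided between its coding transcript *Mdh2*-201, at 57.9% (A24) to 83.8% (A7), and *Mdh2*-203, annotated for nonsense-mediated decay. *Sucla2* was divided between *Sucla2*-201, with a 3′UTR of 111 bases, and *Sucla2*-203, whose 3′UTR has 694 bases, and the former held 54.9% (A24) to 75.8% (A7). A24 and A8 had the lowest shares of the leading transcript for *Sucla2*, *Suclg1*, *Fh1* and *Mdh2*, and these libraries were also raised for short transcripts. The second transcript is shorter than the leading one in *Suclg1* (534 bases), *Fh1* (542 bases) and *Mdh2* (1112 bases). In *Sucla2* it is longer, with 2229 bases against 1545. The part of length in these shares was not tested. None of the 9 leading shares differed between the groups at p under 0.05 in the two-sided exact permutation test. Such shares are estimates from reads that fit several transcripts and are less certain than the gene sums.

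The pathway around the members was followed through 59 other genes in 6 lists, of which 58 were tested and *Slc25a13* was not. Of the 58, 2 (3.45%) were called, both lower, beside 0.465% of all genes tested, and 0 were called higher. As the lists were chosen with earlier results of these data known, this share is a description and not a test of enrichment. They were *Dlst* and *Gpt2*, the mitochondrial alanine aminotransferase that makes oxoglutarate and alanine from glutamate and pyruvate. *Gpt2* had 97.9, 127 and 82.9 CPM in A7, A8 and A12 and between 6.88 and 10.8 CPM in the HuR KO libraries (log2 fold change −3.51, adjusted p = 0.000111 in edgeR), and was called in all 19 alternatives. The count of called genes was 1, *Gpt2* alone, when A7, A25, A26, A29 or A31 was left out, and without A24 and A25. Groups without overlap were found for 6 of these genes (10.3% of 58), near the 11.5% of all genes tested. Of these 6, 5 were lower, where all genes tested gave 6.09%, and 1 was higher, where they gave 5.37%. An unadjusted p under 0.05 was found for 7 of the 58 (12.1%), beside 17% of all genes tested.

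The other genes with an unadjusted p under 0.05 did not pass the threshold in edgeR. *Dlat*, the core subunit of the pyruvate dehydrogenase complex and the counterpart of *Dlst* there, had 756, 689 and 546 CPM in A7, A8 and A12, and 515, 483, 389, 498 and 326 CPM in A24, A25, A26, A29 and A31. The groups did not overlap, with A24 close to A12 (log2 fold change −0.59, adjusted p = 0.168). *Pdk1*, a kinase that switches the pyruvate dehydrogenase complex off, had 187, 175 and 150 CPM in the WT libraries and 111, 133, 119, 106 and 73.3 CPM in the HuR KO libraries, in the same order, also without overlap (log2 fold change −0.65, adjusted p = 0.125). *Nrf1*, a transcription factor of mitochondrial genes, went the other way, from 7.77, 6.48 and 8.21 CPM to 11.6, 15.7, 13.3, 11.2 and 14.6 CPM without overlap (log2 fold change 0.83, adjusted p = 0.0624). DESeq2 called *Pdk1*, *Nrf1* and *Slc25a12*, as well as *Dlst* and *Gpt2*.

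*Slc25a12*, an aspartate-glutamate carrier of the inner mitochondrial membrane, had 11.8, 7.87 and 2.63 CPM in A7, A8 and A12, and between 2.12 and 3.13 CPM in the HuR KO libraries (log2 fold change −1.46, adjusted p = 0.0976 in edgeR). The libraries also differed in skeletal muscle transcripts, whose part in the level of *Slc25a12* was not tested. The 12 skeletal muscle markers summed to 3527, 1988 and 2.19 CPM in A7, A8 and A12, and to 2.37, 3.27, 2.73, 2.86 and 360 CPM in A24, A25, A26, A29 and A31. *Myh4* was the most abundant of them where they were high, and it was at 0 in A25, A26 and A29. Of the 12, 1 was called (*Myh7*, lower), beside 0.465% of all genes tested called lower. An unadjusted p under 0.05 was found for 9 of the 12, all lower, beside 17% of all genes tested in either direction. With the mean log2 CPM of the muscle markers as a covariate, *Dlst* had a log2 fold change of −0.995 (adjusted p = 0.199 in edgeR) and 0 of 9 members were called.

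Markers of other cell types were summed in the same way, and their part in the results was not tested. The 5 macrophage genes, led by *Lyz2*, summed to 70.6, 28.0 and 104 CPM in A7, A8 and A12, and to 92.1, 60.0, 60.4, 49.9 and 51.7 CPM in A24, A25, A26, A29 and A31. The 4 endothelial genes, led on average by *Cdh5*, summed to 364, 302 and 407 CPM in the WT libraries and to 279, 399, 449, 485 and 441 CPM in the HuR KO libraries in the same order. The 4 fibroblast genes, led on average by *Col3a1*, summed to 295, 136 and 411 CPM and then to 224, 199, 99.3, 168 and 189 CPM, and the 4 white adipocyte genes, led on average by *Lep*, to 80.3, 37.8 and 45.9 CPM and then to 59.6, 37.0, 28.5, 54.9 and 56.9 CPM. All genes of these 4 lists were counted in every library, and none was called. An unadjusted p under 0.05 was found for 0 of 5 macrophage, 1 of 4 endothelial, 1 of 4 fibroblast and 3 of 4 white adipocyte genes, beside 17% of all genes tested. The last were *Lep* (log2 fold change −1.22), *Retn* (0.99) and *Agt* (1.99, without overlap), which moved in opposite directions, so that their sum says little of them. *Agt* had low counts, from 5 to 89 in a library, at 0.081 to 0.25 CPM in the WT libraries and 0.28 to 1.32 CPM in the HuR KO libraries.

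In the genome the members are scattered over 9 chromosomes of GRCm38. *Cs* lies on chromosome 10 (128337734 to 128362479, plus strand), *Idh3a* on chromosome 9 (54586334 to 54604661, plus) and *Idh3b* on chromosome 2 (130279309 to 130284547, minus). *Idh3g* is on the X chromosome (73778963 to 73786897, minus), *Ogdh* on chromosome 11 (6291633 to 6356642, plus) and *Sucla2* on chromosome 14 (73525319 to 73596142, plus). *Suclg1* is on chromosome 6 (73248382 to 73276911, plus), *Fh1* on chromosome 1 (175600374 to 175625635, minus) and *Mdh2* on chromosome 5 (135778480 to 135790398, plus). No pair of members is therefore adjacent. Counts of the members are little shared with copies elsewhere, as *Cs* shares 8.6% of its words of 31 bases with *Csl* (0.0397 CPM), *Fh1* 1.07% and *Mdh2* 0.631% with other genes, and the other 6 members share none.

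The 3′UTR, where AU-rich stretches that HuR binds are found, differs in length among the members. In the leading transcripts it has 1347 bases in *Cs*, 1296 in *Idh3a*, 1050 in *Fh1* and 968 in *Ogdh*, and from 107 to 331 bases in the other 5. The median over the members is 331 bases, beside 1021.5 bases over 13402 genes. The motif ATTTA, read on the transcript strand, is present in 4 of the 9 members (*Cs* with 3, *Idh3a* with 4, *Ogdh* with 3 and *Fh1* with 4), beside 66.4% of all genes with a 3′UTR, and *Idh3b*, *Idh3g*, *Sucla2*, *Suclg1* and *Mdh2* have 0. *Dlst* has a 3′UTR of 1335 bases with 1 ATTTA. The site of *Dlst* is shown with a site of *Ogdh*, the partner that was not called, and with a site of *Fh1*, all from the transcripts of GENCODE M21 and 5′ to 3′, with the motif in capitals. A match is a description and does not show binding.
Dlst, chr12:85134027-85134051, plus strand: taactaaaatATTTAaagagactga
Ogdh, chr11:6356172-6356196, plus strand: gtcatggggtATTTAgaggacttta
Fh1, chr1:175601375-175601399, minus strand: aacttaagaaATTTAcaaacaagac

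Promoter windows, from 250 bases before to 50 after the start of a gene, were found in RefSeq (GRCm38.p6) for 8 of the 9 members, and for 27025 genes in all. *Idh3a* is the remaining member. The search took both strands. AAGGTCA, the motif of estrogen-related receptors, was in 1 of the 8 (*Ogdh*), beside 5.38% of all genes, and GCGCATGC, the core of the NRF1 motif, was in 1 of the 8 (*Ogdh* again), beside 3.05%. CCGGAAG, the motif of ETS factors, was in 2 of the 8 (*Idh3b* and *Idh3g*), beside 9.93%. GGGCGG, the motif of SP and KLF factors, was in 5 of the 8 (*Cs*, *Ogdh*, *Sucla2*, *Fh1* and *Mdh2*), beside 38.2%, and TATAAA in 0 of the 8, beside 15.7%. *Ogdh* has 6 windows, so that it had more sequence in which to find a motif.

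The windows of *Idh3b* and *Idh3g* are shown because these genes were the pair that varied most alike over the libraries. Those of *Ogdh* and *Dlst* are shown because they share a complex in which *Dlst* was called and *Ogdh* was not. Capitals mark the motifs searched, and a motif that lies on the opposite strand appears as its reverse complement. The *Ogdh* window shown is that with AAGGTCA. *Idh3b* and *Idh3g* each hold 1 CCGGAAG, on opposite strands relative to the gene. The *Dlst* window also holds 1 CCGGAAG, beside 3 GGGCGG, a pair of which overlap. A match says nothing of whether a factor binds there.
Idh3b, chr2:130284402-130284701, minus strand: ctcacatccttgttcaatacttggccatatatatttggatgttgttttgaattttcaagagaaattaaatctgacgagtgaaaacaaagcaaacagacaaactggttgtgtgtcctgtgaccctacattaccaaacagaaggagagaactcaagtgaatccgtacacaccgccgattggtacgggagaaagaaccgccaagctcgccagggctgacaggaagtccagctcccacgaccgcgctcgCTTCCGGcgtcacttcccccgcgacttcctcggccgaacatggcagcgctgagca
Idh3g, chrX:73786848-73787147, minus strand: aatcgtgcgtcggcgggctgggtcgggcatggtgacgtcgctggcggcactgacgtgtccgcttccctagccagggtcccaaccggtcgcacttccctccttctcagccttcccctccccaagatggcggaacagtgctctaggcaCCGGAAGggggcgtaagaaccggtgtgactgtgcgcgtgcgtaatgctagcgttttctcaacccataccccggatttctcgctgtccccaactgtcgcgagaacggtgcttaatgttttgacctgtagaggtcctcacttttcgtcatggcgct
Ogdh, chr11:6291920-6292219, plus strand: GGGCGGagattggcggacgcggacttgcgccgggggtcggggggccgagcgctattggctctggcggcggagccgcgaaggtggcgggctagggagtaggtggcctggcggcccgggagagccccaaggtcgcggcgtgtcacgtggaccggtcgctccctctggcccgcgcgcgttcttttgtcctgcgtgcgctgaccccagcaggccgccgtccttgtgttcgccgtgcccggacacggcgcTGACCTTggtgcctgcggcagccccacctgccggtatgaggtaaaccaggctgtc
Dlst, chr12:85110583-85110882, plus strand: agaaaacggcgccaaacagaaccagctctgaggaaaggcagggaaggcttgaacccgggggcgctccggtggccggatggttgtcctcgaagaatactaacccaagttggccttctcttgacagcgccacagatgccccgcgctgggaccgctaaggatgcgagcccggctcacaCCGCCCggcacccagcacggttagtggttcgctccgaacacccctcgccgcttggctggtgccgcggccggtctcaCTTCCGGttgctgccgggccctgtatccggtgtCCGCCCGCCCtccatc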

How the data were processed

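The authors prepared poly(A) TruSeq libraries from BAT RNA of 8 mice and named CLC Genomics Workbench for read mapping. The deposited values are estimated counts per transcript (105129 transcripts of 33641 genes), not normalized, and the methods name neither the program that estimated them nor its use of strand. The legend of the study gives the group sizes the other way round, and the labels of the libraries were used.

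Counts were summed by gene, rounded, filtered with filterByExpr and scaled by TMM. The test was edgeR's quasi-likelihood F-test (edgeR 4.0.16, R 4.3.3), with Benjamini-Hochberg adjustment over 14851 genes. The threshold follows the study. The standard error is the size of the log2 fold change over the square root of F. DESeq2 1.42.0 and limma 3.58.1 were run as alternatives. Log2 CPM used a prior count of 2 and ratios of counts a pseudocount of 0.5. For single values, libraries were permuted exactly and tested on both sides in Python 3.11.15. The steps were tested on simulated data. There, a true log2 fold change of 1 was called for 37 of 100 genes, and of 2 for 89 of 100. With a true value of 0, 4 of 14367 were called. Member counts per library were at least 10460, so that counting error was small beside the spread between mice. Between 0.289% and 0.448% of counts lay on transcripts with no length and were left out of TPM.

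The members and lists were chosen with earlier results of these data known. Named are all members, the subunits that share a complex or step with them, every other pathway gene past the threshold or with an unadjusted p under 0.05, the 10 genes most like the members' mean, and the cell type markers. Some genes under this rule are not reported here. The other names, *Mrps36*, *Slc25a13* and genes sharing sequence, answer a count. The ratios of *Dlst* and the removal of the length trend (lowess, span 0.3, on log2 length) were chosen after seeing the data. Proteins and physiology were not analysed here.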

Additional observations from a re-analysis of the deposited data

Results flagged for a closer look

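Of 44 quantities read in the 5 libraries labelled HuR KO, 6 had a library far from the other 4, and chance alone marks about 1 in 20 such groups. A24, a shallow library with raised counts for short transcripts, is the library in 5 of the 6. It was high for *Idh3g* (1176 CPM), *Fh1* (628 CPM) and the macrophage sum (92.1 CPM), and low for the leading transcript of *Sucla2* (54.9% of counts) and of *Mdh2* (57.9%). A31 was high for the skeletal muscle sum, at 360 CPM. The groups of 3 WT libraries were not read in this way, and no cause was tested.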

How the results depend on the processing

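The number of members called was 0 under all 21 alternatives, thresholds without a fold and adjusted p up to 0.10 included. Their median log2 fold change moved to 0.24 with total counts only, where all genes moved by 0.23. That scaling also turned *Idh3a* to 0.083, *Idh3b* to 0.24 and *Idh3g* to 0.19, which less the shift are −0.15, 0.015 and −0.042. Of 171 member values under alternatives, 12 changed sign, all uncalled. Without A7, A8 and A31, which leaves 1 WT library assumed to vary like the others, *Idh3b* had 0.16 and *Idh3g* 0.17, and with limma voom *Idh3b* had 0.0062. With each library left out in turn, *Cs* ran from −0.020 to 0.096, *Idh3b* from −0.080 to 0.14 and *Idh3g* from −0.21 to 0.19. The other members kept their signs, with −0.28 to −0.016 for *Idh3a*, −0.34 to −0.17 for *Ogdh*, 0.099 to 0.30 for *Sucla2*, 0.18 to 0.56 for *Suclg1*, −0.45 to −0.0084 for *Fh1* and 0.012 to 0.35 for *Mdh2*. Over all 19 settings they spread further, with −0.43 to 0.083 for *Idh3a*, −0.34 to −0.0096 for *Ogdh*, 0.099 to 0.46 for *Sucla2*, 0.16 to 0.58 for *Suclg1* and 0.012 to 0.49 for *Mdh2*. Differences of *Idh3a* to *Idh3b* (0.067) and to *Idh3g* (0.13) turned without A24 and A25. They were −0.44 (exact permutation p = 0.143) and −0.40 (exact permutation p = 0.25) with the transcript of the highest count. With a library left out they ran from −0.25 to −0.038 and from −0.21 to −0.0034. The difference of *Sucla2* to *Suclg2* kept its sign, between 0.070 (without A7, A8 and A31) and 0.43 (without A24 and A25). With a library left out the smallest exact permutation p is 0.0571 or 0.0952, so that this test could not pass 0.05 there, and without A12 (0.42) p was at that minimum of 0.0952. With the transcript of the highest count, where it could, the difference was 0.24 (exact permutation p = 0.357).

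The number of genes called was 818 with DESeq2, 16 with the transcript of the highest count, 16 with the muscle covariate, 5 without A24 and A25, 4 without A7, A8 and A31, 353 with the length trend removed, 492 at an adjusted p of 0.10 without a fold, and 10 to 190 with a library left out. Other pathway genes called numbered 6 with DESeq2, 4 at an adjusted p of 0.10 without a fold, and 1 with total counts, the transcript of the highest count, the muscle covariate and either set of libraries left out, and 1 to 3 with a library left out. Transcripts called numbered 1 with total counts, 0 without A24 and A25, and 0 to 2 with a library left out. The causes were not tested.

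Of 90 values of the leading transcript shares under alternatives, 16 changed sign, in 6 of the 9 members. In percentage points, with a library left out, these ran from −0.00933 to 0.00416 for *Cs*, −0.00438 to 0.222 for *Idh3g*, −3.77 to 0.802 for *Ogdh*, −2.84 to 4.01 for *Sucla2*, −2.44 to 2.49 for *Fh1* and −3.36 to 6.41 for *Mdh2*. *Sucla2* had 2.99 without A24 and A25 and 2.88 without A7, A8 and A31, where *Fh1* had −0.484. The shares of *Idh3a* (−12.9 to −6.56 with a library left out), *Idh3b* (−1.05 to −0.119) and *Suclg1* (0.485 to 5.08) kept their signs throughout.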
